A study of Homo sapiens with 8 samples.

Results

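Processed pseudogenes of 11 abundant mRNAs (EEF1A1, GAPDH, HNRNPA1, HMGB1, HMGN2, PPIA, NPM1, TPT1, KRT18, KRT8 and SERBP1) were followed between the chromatin and the nucleoplasm RNA of HAP1 cells. Of 521 such loci annotated by GENCODE release 44 on hg38, 501 had a gene in the short-read table, and 191 reached at least 10 normalized counts in at least 3 of the 6 short-read libraries. These 191 are the pseudogenes described here, of 26093 genes tested in all. A table gene was taken for a pseudogene when it carried its ENSG identifier (27 pseudogenes) or when both spans on the same strand had a Jaccard index, the overlap divided by the union, of at least 0.5 (164 pseudogenes). At the edge of the rule, the third highest count was 10.5 for PPIAP72, which was kept, and 9.47 for HNRNPA1P45, which was not. The lowest Jaccard index kept was 0.707 for SERBP1P1, and the highest below the limit was 0.333 for EEF1A1P30.

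HAP1 is a near-haploid human cell line of leukemia origin, and all libraries came from this line without treatment. Nuclei were extracted with urea and detergent, and the pellet was taken as chromatin and the supernatant as nucleoplasm. Short-read libraries with strand information were made from 3 chromatin and 3 nucleoplasm samples of 3 cultures, and long-read direct cDNA libraries from 2 chromatin samples. The fractions were read from the sample titles, since another label names chromatin for every library. MALAT1, a nuclear lncRNA, was higher in chromatin (log2 fold change 3.09 ± 0.08 SE, n = 3 against 3), while the mRNAs of GAPDH and B2M were lower there (-2.35 ± 0.08 and -2.11 ± 0.08), in the directions of the titles. Of 12 markers of leukemia-derived lines, 6 were tested and none was called by limma, 1 being higher and 3 lower at any fold, with summed counts of 7669 to 8238 in chromatin and 8233 to 8345 in nucleoplasm, and PTPRC, SPI1 and GATA1 were at 0 in every library. Of 5 fibroblast markers 3 were tested, with summed counts of 4386 to 4985 in chromatin and 15040 to 15341 in nucleoplasm, mostly VIM. Epithelial markers summed to 1062 to 1240 and 2969 to 3163, mostly from KRT8 and KRT18 themselves, with KRT19 at 0. EPCAM had means of 59.8 in chromatin and 323 in nucleoplasm and was called in nucleoplasm (-2.41). The 9 mitochondrially encoded mRNAs tested summed to 74350 to 84684 in chromatin and 223142 to 260881 in nucleoplasm. The part of cytoplasmic carry-over in the results was not tested.

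A processed pseudogene is a copy of an mRNA that was reverse transcribed and inserted elsewhere in the genome. It lacks the introns of its parent and normally brings no promoter with it, so that its transcription depends on where it landed. Genes with abundant mRNAs, among them translation factors, glycolytic enzymes and nuclear RNA-binding and chromatin proteins, have left many such copies. An inserted copy inside an intron of another gene on the same strand lies within that gene's unspliced transcript, and a copy close to its parent in sequence can take up reads of the parent's mRNA.

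The copies differed in how far they had moved from the parent, which decides whether a read of 50 bases can tell them apart. The copies of 3 families are shown over 75 bases of the parent's coding sequence. In each, the line of the parent is followed by a copy in the nucleoplasm direction and then a copy in the chromatin direction. Bases are written 5′ to 3′, and capitals mark where a copy differs from its parent. The stretch of EEF1A1, which delivers aminoacyl-tRNA to the ribosome, covers coding bases 54 to 128. EEF1A1P5 lies at chr9:133019539-133019613 (+ strand) and EEF1A1P3 at chr13:28214567-28214641 (+ strand), with 0 and 7 differences.
EEF1A1: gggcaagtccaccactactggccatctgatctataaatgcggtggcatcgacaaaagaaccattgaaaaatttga
EEF1A1P5: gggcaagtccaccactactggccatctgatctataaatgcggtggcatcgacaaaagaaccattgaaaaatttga
EEF1A1P3: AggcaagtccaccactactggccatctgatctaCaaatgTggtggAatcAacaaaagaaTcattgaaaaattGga
For PPIA, the prolyl isomerase cyclophilin A, coding bases 328 to 402 are shown. PPIAP22 lies at chr21:18858106-18858180 (+ strand) and PPIAP41 at chr11:43466710-43466784 (+ strand), with 0 and 11 differences.
PPIA: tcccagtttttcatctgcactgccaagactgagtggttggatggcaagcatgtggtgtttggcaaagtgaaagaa
PPIAP22: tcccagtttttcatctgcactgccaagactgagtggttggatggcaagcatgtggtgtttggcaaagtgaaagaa
PPIAP41: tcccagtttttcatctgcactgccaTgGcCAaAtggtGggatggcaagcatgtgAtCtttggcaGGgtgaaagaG
For GAPDH, the glycolytic dehydrogenase, coding bases 109 to 183 are shown. GAPDHP63 lies at chr6:79953829-79953903 (- strand) and GAPDHP43 at chr15:44354801-44354875 (+ strand), with 5 and 13 differences.
GAPDH: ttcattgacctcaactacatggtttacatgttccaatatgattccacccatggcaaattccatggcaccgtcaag
GAPDHP63: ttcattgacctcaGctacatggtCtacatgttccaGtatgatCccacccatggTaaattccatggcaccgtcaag
GAPDHP43: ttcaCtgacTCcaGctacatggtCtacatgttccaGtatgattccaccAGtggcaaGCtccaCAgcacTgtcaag

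Over their whole aligned length, the 191 pseudogenes were 72.6% to 99.7% identical to the parent's mRNA, with a median of 91.1%. The share of 50-base windows of a locus that occur once in hg38 and in no annotated transcript of the parent had a median of 89.5% and ranged from 0% to 100%. In 13 pseudogenes under 50% of the windows were unique in this way, among them EEF1A1P5 (10.4%), EEF1A1P6 and PPIAP22 (11.1%). None of these 13 was called in chromatin and 10 were called in nucleoplasm. The count of a locus with few unique windows may hold reads of its parent or of another copy, and how the authors' pipeline divided such reads is not given in the sources used here.

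Most of the pseudogenes were lower in chromatin, as their parents were. A call needed an adjusted p-value under 0.05 (limma, Benjamini-Hochberg over all tested genes) together with a log2 fold change, chromatin minus nucleoplasm, beyond 2 in either direction. By this rule 119 of the 191 pseudogenes (62.3%) were called in nucleoplasm, against 8.46% of all tested genes. In chromatin 22 (11.5%) were called, against 21.2% of all tested genes, and 50 were not called in either fraction. With libraries scaled to the same total, nucleoplasm had 66 calls and chromatin 24, and with the same ERCC total, which moved the median of all tested genes to -1.32, they had 156 and 15, so directions here are relative to the bulk of the genes. The median log2 fold change of the pseudogenes was -2.23, and that of all tested genes was -0.02. At any fold, 157 were lower and 27 were higher in chromatin at an adjusted p-value under 0.05. Of all 26093 tested genes 11774 were lower and 11536 higher by the same rule. The 3 chromatin values of 160 pseudogenes all lay below the 3 nucleoplasm values, those of 27 all lay above, and 4 overlapped. This overlap was not counted over all tested genes. The calls closest to the threshold were 2.24 and -2.03 inside it, and 1.77 and -1.997 outside it.

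The count minimum bears on these numbers, since a pseudogene that passed it in only 1 fraction had to differ. All 6 libraries of 129 pseudogenes reached 10 normalized counts, and of these 97 were called in nucleoplasm and 3 in chromatin. Another 21 passed only through nucleoplasm and 18 only through chromatin. Of the 22 chromatin calls, 16 passed through the chromatin libraries alone, and for 10 no nucleoplasm library had over 3 reads. The fold of these 10 is a lower bound, set against 3 reads per nucleoplasm library, of at least 6.41-fold to at least 19.9-fold. Among the nucleoplasm calls, 6 had at most 3 reads in each chromatin library. Their folds are bounds too, from at least 3.73-fold, which is under the 4-fold limit of a call, to at least 164-fold. With all such bounds in place of the fitted values, the median over the 191 pseudogenes was -2.19.

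**Figure D1:**
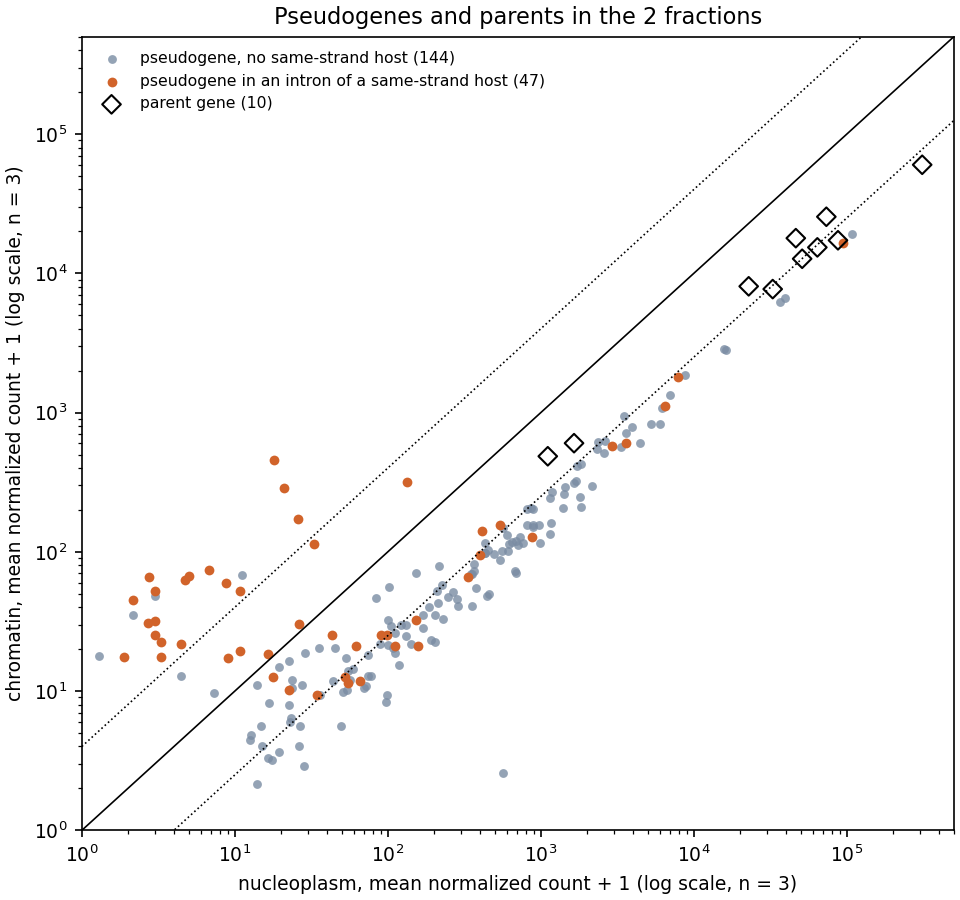
Mean normalized count + 1 of each pseudogene and parent in nucleoplasm (x axis) and chromatin (y axis), both on log scales, with the mean of 3 libraries per point. The solid line marks equal levels and the dotted lines a 4-fold difference. Most points follow the lower dotted line beside the parents, and a smaller group of mostly hosted pseudogenes lies above the upper one at low nucleoplasm counts.

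The parents were all lower in chromatin where they could be measured alone. The mRNAs of EEF1A1 (log2 fold change -2.38 ± 0.09 SE), GAPDH (-2.35 ± 0.08), PPIA (-2.09 ± 0.07), the nucleolar protein NPM1 (-2.07 ± 0.07) and the translationally controlled protein TPT1 (-2.02 ± 0.11) were called in nucleoplasm. With libraries scaled to the same total none of these 5 was called (EEF1A1 -1.91, GAPDH -1.89, PPIA -1.63, NPM1 -1.61 and TPT1 -1.56). PPIA (-1.999), NPM1 (-1.97) and TPT1 (-1.91) also missed the call by DESeq2, TPT1 by edgeR (-1.98) and TMM factors (-1.99), and NPM1 (-1.99) and TPT1 (-1.89) without chromatin replicate 2. Those of the splicing regulator HNRNPA1 (-1.53 ± 0.06), the DNA-bending protein HMGB1 (-1.51 ± 0.08), the keratins KRT18 (-1.46 ± 0.09) and KRT8 (-1.19 ± 0.05) and the mRNA-binding protein SERBP1 (-1.38 ± 0.07) fell by less than 4-fold. All 10 had adjusted p-values between 2.16e-08 and 7.33e-07 by limma with Benjamini-Hochberg adjustment. The parent HMGN2, a nucleosome-binding protein, was merged with DHDDS into 1 table gene (0.06 ± 0.05), so its pseudogenes have no parent value here. EEF1A1 and NPM1 had no table gene at a Jaccard index of 0.5 and were taken from the table gene with the largest exon overlap, a choice made after seeing the table.

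Of 17 relatives of the parents that carry introns, such as HMGB2, HNRNPA2B1 and PPIB, 16 were tested, 4 were called in nucleoplasm and none in chromatin, and their median log2 fold change was -0.87. Of 10 retrocopies that the annotation lists as genes, 6 were tested, HNRNPA1L3 and 5 of the PPIAL4 copies, and all 6 were called in nucleoplasm, with a median of -2.94. Their sequences are close to those of HNRNPA1 and PPIA, so their counts are uncertain.

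Most families leaned to nucleoplasm. Among the EEF1A1 pseudogenes 19 of 22 were called in nucleoplasm and 0 in chromatin (0 also by edgeR and DESeq2, with 1 higher at an unadjusted p-value under 0.05), with a median of -2.53. EEF1A1P5 had the highest counts of all the pseudogenes, 19625, 16643 and 21117 in chromatin against 107510, 106168 and 111436 in nucleoplasm. Its log2 fold change was -2.51 ± 0.09 (SE), which differed from that of the parent by -0.13. EEF1A1P6 (-2.52 ± 0.08), EEF1A1P13 (-2.59 ± 0.09), EEF1A1P11 (-2.54 ± 0.08) and EEF1A1P9 (-2.53 ± 0.08) had nearly the same value. EEF1A1P3, in an intron of PAN3 on chromosome 13, was the only member of its family higher in chromatin, with 310, 352 and 293 against 133, 131 and 132 normalized counts. Its log2 fold change of 1.26 ± 0.09 was below the threshold of the call.

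NPM1 pseudogenes were lower in chromatin in all 20 cases, 17 of them called, with a median of -2.40. NPM1P27, the most abundant, lay at 1161, 925 and 1237 in chromatin and at 6279, 6543 and 6694 in nucleoplasm (-2.56 ± 0.10). NPM1P8 (-3.57 ± 0.17) and NPM1P12 (-3.42 ± 0.21) were among the 5 largest falls. The chromatin counts of NPM1P8 were 8.15, 6.005 and 7.68, and its nucleoplasm counts 93.0, 97.3 and 100.5.

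Among PPIA pseudogenes 28 of 33 were called in nucleoplasm and 3 in chromatin, with a median of -2.59. PPIAP29, the most abundant, had 879, 701 and 889 counts in chromatin and 6037, 5847 and 6256 in nucleoplasm (-2.88 ± 0.09). PPIAP22, with the sequence of its parent in the stretch shown, fell by 2.88 ± 0.10. PPIAP82 had 0, 2.40 and 3.29 counts in chromatin and 26.3, 27.5 and 28.7 in nucleoplasm, at least 7.95-fold lower in chromatin.

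HNRNPA1 pseudogenes formed the largest family, with 33 of 45 called in nucleoplasm, 2 in chromatin and a median of -2.13. HNRNPA1P10 was its most abundant copy (1933, 1683 and 1997 in chromatin, 8620, 8703 and 9073 in nucleoplasm; -2.24 ± 0.07). Both groups of libraries were well apart in this copy, and the fall was larger than the -1.53 of the parent. Only 11.5% of the windows of HNRNPA1P10 were unique, and 72.9% occurred in transcripts of the parent. Its counts may thus hold reads of the parent or of another copy, which was not tested. Of 13 GAPDH pseudogenes 9 were called in nucleoplasm and 2 in chromatin, and of 12 HMGB1 pseudogenes 7 and 3. GAPDHP63, the most abundant of its family, had 637, 539 and 669 against 2484, 2296 and 2320 counts (-1.95 ± 0.08), just short of a call. HMGB1P6 had 604, 502 and 611 against 2910, 2886 and 2961 (-2.35 ± 0.08). TPT1 pseudogenes were 4 in nucleoplasm and 1 in chromatin out of 5. TPT1P9 had 155, 107 and 141 counts against 1115, 1169 and 1145 (-3.10 ± 0.13).

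HMGN2 pseudogenes stood in the middle. None of the 14 was called in either fraction by limma, edgeR or DESeq2, although by limma 10 were lower in chromatin and 0 higher at an adjusted p-value under 0.05, the same numbers as at an unadjusted one. The median was -0.83. HMGN2P8, the most abundant, had 79.2, 75.7 and 80.1 counts in chromatin and 186, 234 and 222 in nucleoplasm (-1.43 ± 0.11).

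The keratin pseudogenes went the other way in part. KRT8 pseudogenes had a median log2 fold change of 2.81, with 7 of 10 called in chromatin and 0 in nucleoplasm. KRT18 pseudogenes had 4 of 13 called in chromatin, 0 in nucleoplasm and a median of -1.16. Over all families, 16 of the 22 chromatin calls passed the count minimum through the chromatin libraries alone. KRT18P37 and KRT8P31 were among these and had to be higher in chromatin, so the keratin numbers follow in part from that limit. With lower bounds of folds in place of the fitted values, the KRT8 median was 2.78. KRT18P31 was the most abundant keratin copy, with 411, 519 and 447 normalized counts in chromatin and 17.6, 18.1 and 15.2 in nucleoplasm. Its log2 fold change of 4.68 ± 0.13 was the largest of all the pseudogenes, while the KRT18 mRNA went from 1533, 1713 and 1696 in nucleoplasm to 611, 525 and 670 in chromatin. KRT8P39 had 260, 312 and 290 counts against 17.6, 22.4 and 20.3 (3.78 ± 0.13).

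**Figure D2:**
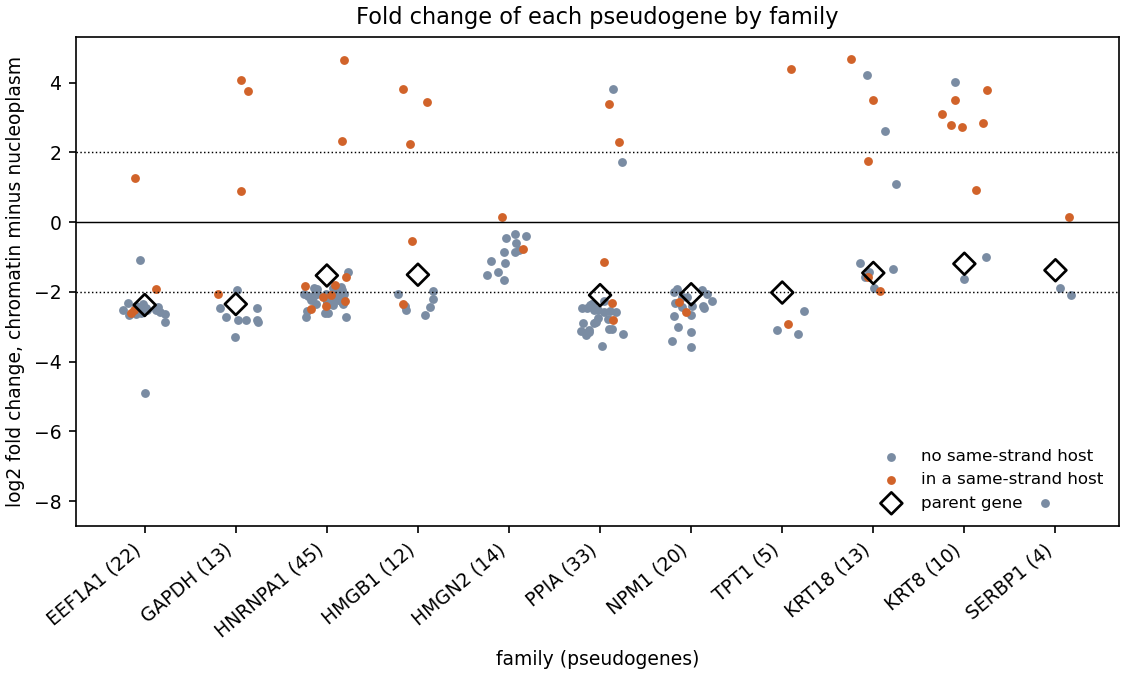
Log2 fold change of each pseudogene (points) and its parent (open diamonds), by family, with the number of pseudogenes in brackets. Dotted lines mark the fold threshold at 2 and -2. Most points lie at or below the parent, hosted copies (orange) make up most points above 2, and KRT8 has the most of these.

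The chromatin calls lay mostly inside other genes. A pseudogene was given a host when a protein-coding or lncRNA gene on the same strand held its whole locus. This was so for 47 pseudogenes, none of which overlapped a same-strand exon of another gene, and for these 18 (38.3%) were called in chromatin and 14 (29.8%) in nucleoplasm, with a median log2 fold change of 0.13. Among the 144 without a same-strand host 4 (2.78%) were called in chromatin and 105 (72.9%) in nucleoplasm, with a median of -2.36. Opposite-strand genes were counted apart. Of 62 pseudogenes that lay over an opposite-strand gene alone chromatin had 1 call and nucleoplasm 46, and among the 82 outside genes there were 3 and 59. Of the 25 hosted pseudogenes with at least 10 counts in every library, 3 were called in chromatin and 12 in nucleoplasm, against 0 and 85 of 104 without a host. Asking for 10 counts in nucleoplasm removes low copies with a large chromatin fold. The smaller number of chromatin calls follows in part from this limit.

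Other tested processed pseudogenes were counted in the same way. Of 678 in a same-strand host 41.3% were called in chromatin, and of 1574 without one 5.46%. Of 494 ribosomal protein pseudogenes chromatin had 61 calls and nucleoplasm 354. The split by host was thus also seen outside the 11 families, under the same count minimum. These other pseudogenes were not divided by the fraction in which they passed it, so the part of that limit in their split is not known. Of all 4206 other tested genes in a same-strand host 69.9% were called in chromatin and 4.54% in nucleoplasm, with a median log2 fold change of 3.14, so the hosted pseudogenes had the lower share of chromatin calls. Of 17 other tested intronic genes inside the hosts of the pseudogenes 64.7% were called in chromatin.

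Of the chromatin calls, 6 of 7 in KRT8, all 3 in HMGB1, both in GAPDH, both in HNRNPA1, the 1 in TPT1, 2 of 3 in PPIA and 2 of 4 in KRT18 lay in hosts. No hosted copy of EEF1A1, HMGN2, NPM1 or SERBP1 was called in chromatin, among 4, 2, 2 and 1 such copies. The 5 largest chromatin changes were those of KRT18P31, HNRNPA1P5, TPT1P10, KRT18P37 and GAPDHP43. HNRNPA1P5, in an intron of the kinase gene MAP2K5, had 58.2, 90.1 and 45.01 counts in chromatin and 3.51, 0.861 and 0.845 in nucleoplasm. TPT1P10, in an intron of the inositol kinase gene IPMK, had 46.6, 50.4 and 35.1 against 0.878, 1.72 and 0.845, at least 17.1-fold higher in chromatin. GAPDHP43, in an intron of GOLM2, had 57.1, 66.1 and 30.7 against 1.76, 1.72 and 2.53, at least 19.9-fold higher. PPIAP41, in an intron of TTC17, had 24.5, 37.2 and 30.7 against 1.76, 1.72 and 2.53, at least 11.9-fold higher. The 3 chromatin values lay above the 3 nucleoplasm values in each of these.

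Outside hosts 4 pseudogenes were called in chromatin, and they are named here after their values were seen. KRT18P37 (37.3, 28.8 and 36.2 against 2.63, 0.861 and 0 counts, at least 13.2-fold higher) began 145 bases past the end of GOLGA7 on the same strand. PPIAP67 (10.5, 20.4 and 19.8 against 0.878, 0 and 0, at least 6.54-fold) lay 612 bases past MTX2. KRT18P4 (80.4, 73.3 and 49.4 against 11.4, 11.2 and 7.60) lay 2860 bases past RNF114, and KRT8P31 (33.8, 64.9 and 42.8 against 0.878, 2.58 and 2.53, at least 18.3-fold) 6821 bases past ELOVL7. Of the 144 pseudogenes without a host, 15 began within 10000 bases downstream of a same-strand gene and held all 4 chromatin calls beside 7 nucleoplasm calls. Of the other 129, 0 were called in chromatin and 98 in nucleoplasm. The limit of 10000 bases was set after these distances were seen.

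Each pseudogene was then set against its own parent within each library, which removes any scaling between libraries. The difference of log2(count + 1) between pseudogene and parent, chromatin minus nucleoplasm, had a median of -0.38 over the 177 pseudogenes with a parent value and ranged from -6.68 to 6.42. The sign of this median holds only for copies above the count minimum: without it the median over 356 loci was 0.85, and with a pseudocount of 5 it was -0.22. The 3 chromatin values of this difference lay above the 3 nucleoplasm values in 35 pseudogenes and below them in 114, and overlapped in 28. Other tested genes set against the same parents were higher in 85.1% and lower in 8.38% of the comparisons. In 126 of the 177 pseudogenes the change was within 1 log2 unit of the parent's change. The exact two-sided permutation test over 6 libraries cannot go below p = 0.1, which was reached wherever the values did not overlap. Hosted pseudogenes had a median of 1.51 (45 pseudogenes, 27 above the parent and 14 below), and those without a host -0.48 (132 pseudogenes, 8 above and 100 below). The count minimum bears on the hosted value, since 14 of the 47 hosted copies passed it only in chromatin and had to be higher there. The median log2 fold change was 3.48 in those 14 and -1.99 in the 25 hosted copies that passed in every library. The difference from the parent was not divided in this way.

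The same comparison was made with the host gene. Of the 47 hosts 38 were tested, each holding 1 pseudogene, and the median difference between pseudogene and host was 0.03, with a range from -4.73 to 5.59. There were 18 pseudogenes above the host, 17 below and 3 overlapping. The median has no settled sign, since it was -1.72 over the 16 pairs with a mean count of 50 or more and 1.42 over the 34 with at least 50% unique windows. Other tested genes inside a same-strand host lay above it in 84.4% and below it in 9.03% of 3456 cases, with a median of 3.17. Of the 18 called in chromatin 17 rose above the host, and of the other 20 only KRT18P15, in CMTM8, did so while 16 fell below. This division follows in part from the calls, which use the same libraries.

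KRT18P31 changed by 4.47 log2 units more than NIPBL, the cohesin loader that holds it, whose own log2 fold change was 0.20. GAPDHP43 changed by 5.59 more than GOLM2 (-1.52), TPT1P10 by 4.79 more than IPMK (-0.39), and HNRNPA1P5 by 2.99 more than MAP2K5 (1.67). The last 3 values depend on the pseudocount of 1, since these copies had at most 4 counts in each nucleoplasm library. KRT8P36 (2.71 ± 0.18), the exception among the chromatin calls, lay below DZIP1L (3.22), the only one of the 18 hosts above 2. The 18 hosts ranged from -1.52 to 3.22 with a median of 0.17.

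At the other end, the counts of the most abundant hosted copies did not follow those of their hosts. EEF1A1P6 had 17115, 14439 and 18113 counts in chromatin and 93728, 92917 and 97602 in nucleoplasm, a change of -2.52, while STEAP1B around it had 468, 569 and 484 against 696, 662 and 699 (-0.44 ± 0.08). HNRNPA1P7 (-2.13 ± 0.07) lay in GAREM1 (-0.46 ± 0.06), NPM1P27 in FAM172A (0.03 ± 0.05, adjusted p = 0.631 by limma) and PPIAP19 (-2.80 ± 0.14) in the actin-binding gene ABLIM1 (-1.17 ± 0.06). HMGB1P6 in THSD4-AS1 (1.82 ± 0.21) went against its host by 4.18 log2 units. Each of these 5 differences was lower in every chromatin library than in every nucleoplasm library (exact permutation p = 0.1, n = 3 against 3, the smallest possible). Unique windows made up 22.3% of EEF1A1P6, 23.7% of HNRNPA1P7, 31.9% of NPM1P27, 36.2% of HMGB1P6 and 64.8% of PPIAP19. The counts of these copies may thus hold reads of the parent or of another copy, which was not tested.

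**Figure D3:**
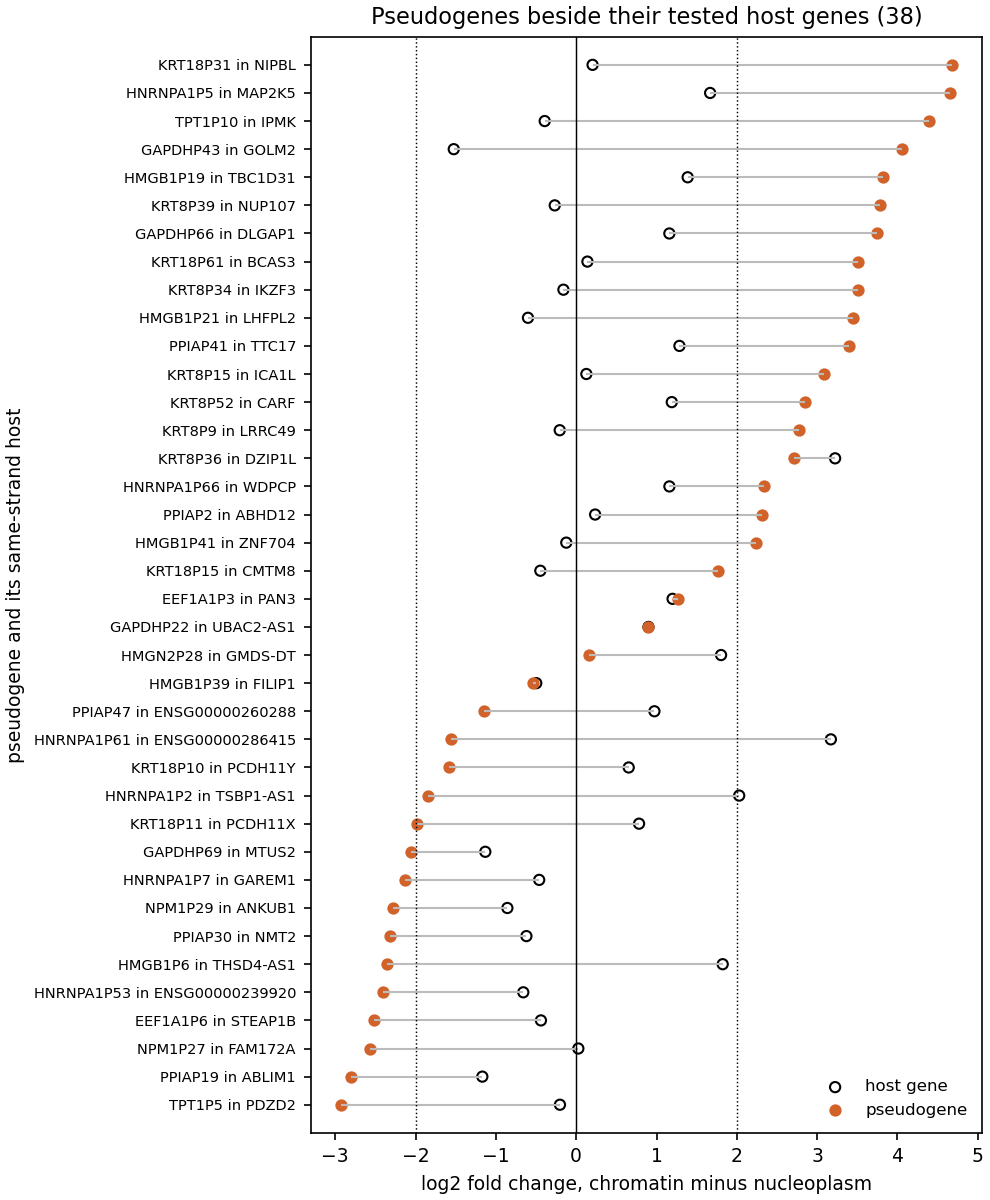
Log2 fold change, chromatin minus nucleoplasm, of 38 pseudogenes (filled) and of the same-strand host gene that holds each (open), ordered by the pseudogene. Hosts mostly lie between -2 and 2, and the pseudogenes spread to both sides of them.

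Hosted copies were also grouped by their likeness to the parent. Windows of 50 bases that matched the parent's mRNA with at most 2 differences made up between 0% and 100% of a locus, with a median of 28.1%. Of the 14 hosted copies with at most 10% such windows 11 were called in chromatin and 1 in nucleoplasm, with a median log2 fold change of 3.45. Of the 25 hosted copies between 10% and 50% 7 and 8 were called, and of the 8 above 50% 0 and 5. The count minimum set much of this, since 14 of the 47 hosted copies passed it only in chromatin and had to be higher there, and these included 8 of the 14 copies with at most 10%. Of the 25 hosted copies that passed in every library, 2 had at most 10% such windows, 1 called in chromatin and 1 in nucleoplasm. Of the 15 between 10% and 50% 2 and 6 were called, and of the 8 above 50% 0 and 5. Across these 25 Spearman's rho between the share and the log2 fold change was -0.27 and Pearson's r -0.38, weak values that are given as a description of loci that share libraries and often a parent. Among the 144 copies without a host, 10 of the 14 with at most 10% such windows were called in nucleoplasm and 1 in chromatin. GAPDHP43, PPIAP41, GAPDHP66, HMGB1P19 and KRT8P52, all called in chromatin, had no window within 2 differences of the parent, and EEF1A1P6 had 100%. Whether reads of the parents account for the nucleoplasm side of the hosted copies was not tested.

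TPT1P5, in an intron of PDZD2, was the hosted copy that was unlike its parent and called in nucleoplasm. It is named after its values were seen. Only 4.76% of its windows were within 2 differences of TPT1, and its counts were 23.3, 15.6 and 20.9 in chromatin and 161, 156 and 151 in nucleoplasm (-2.93 ± 0.16), while PDZD2 changed by -0.20.

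**Figure D4:**
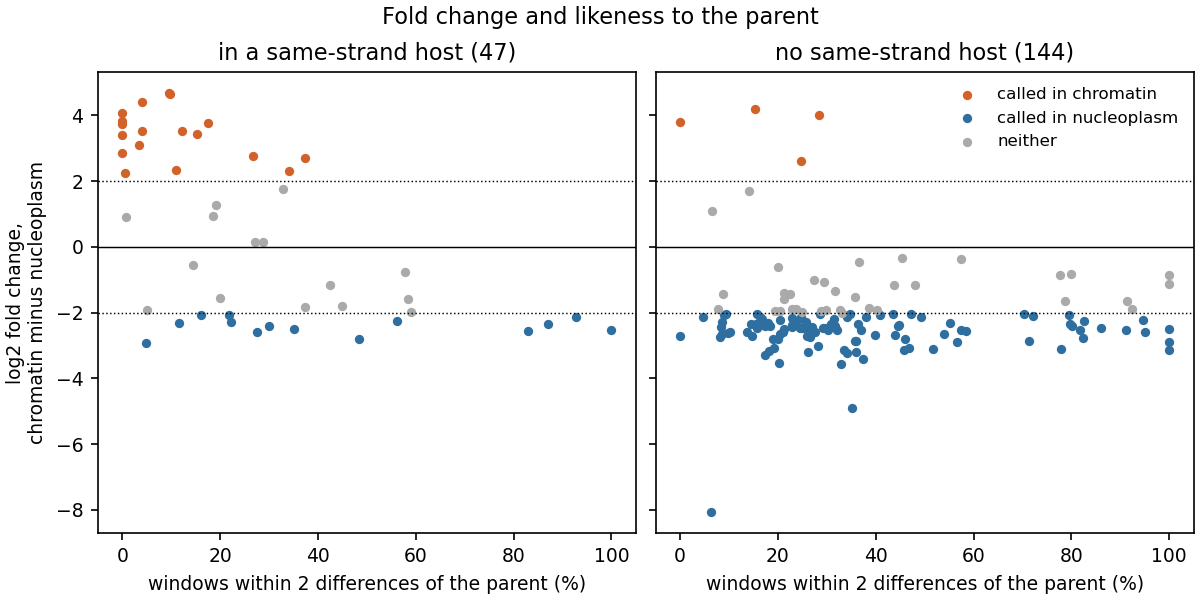
Log2 fold change of each pseudogene against the percent of its 50-base windows within 2 differences of the parent's mRNA, for hosted copies (left) and others (right), coloured by call. On the left chromatin calls lie below 40%, most of them copies that passed the count minimum only in chromatin, and the points above 50% are all negative. On the right the level changes little along the axis.

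The 2 largest falls rest on unusual counts. SERBP1P6 had 0, 3.60 and 1.10 counts in chromatin and 562, 563 and 580 in nucleoplasm. It was at least 164-fold lower in chromatin, set against 3 reads per chromatin library. Its annotated locus of 3469 bases aligned to SERBP1 over 17.6% of its length and overlaps a same-strand exon of a second processed pseudogene, ENSG00000250860. EEF1A1P24 had 102, 0 and 113 counts in chromatin and 657, 670 and 708 in nucleoplasm. Its log2 fold change of -4.90 ± 1.59 became -2.64 without chromatin replicate 2, the library at 0, and DESeq2 gave -3.15 without a call.

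The share of a family's counts that fell on its pseudogenes was compared within libraries, as the summed counts of the tested copies divided by that sum plus the parent. It was lower in chromatin in 7 of 10 families. PPIA copies held 31.6% ± 1.29 (SD, n = 3) in chromatin and 42.5% ± 0.463 in nucleoplasm. HNRNPA1 copies held 22.8% ± 0.454 and 31.2% ± 0.296, and HMGB1 copies 15.8% ± 0.519 and 23.1% ± 0.138. With only the copies that had at least 50% unique windows, the difference, chromatin minus nucleoplasm, shrank from -8.38 to -4.35 percentage points in HNRNPA1, from -7.33 to -4.31 in HMGB1 and from -3.13 to -1.29 in NPM1. The part of reads shared with the parent in these shares was not tested. EEF1A1 copies took up about the same count as the parent in both fractions (50.6% ± 0.0534 and 53.0% ± 0.131).

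The keratin families were reversed. KRT18 copies held 57.0% ± 5.03 of the family's counts in chromatin and 17.3% ± 0.126 in nucleoplasm, and KRT8 copies 58.5% ± 3.12 and 14.6% ± 0.222. KRT18P31 alone had a mean of 459 counts in chromatin, beside 602 for KRT18, and 9 of the 13 KRT18 copies were not called. The sums include copies such as KRT18P37 and KRT8P31, which passed the count minimum only in chromatin. Copies of this kind add more to the chromatin share, and no share was taken without them. GAPDH copies held 7.11% ± 0.291 and 6.97% ± 0.126, a difference inside the spread (exact permutation p = 0.6, n = 3 against 3). In the other 9 families the libraries did not overlap, at p = 0.1, the smallest the exact two-sided test allows, and p = 0.111 after Benjamini-Hochberg adjustment over 10 families. The smaller shares were 15.7% and 18.8% for NPM1, 7.82% and 12.1% for SERBP1 and 3.07% and 4.94% for TPT1. These are shares of counts and not of molecules, since counts grow with the length of a transcript.

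**Figure D5:**
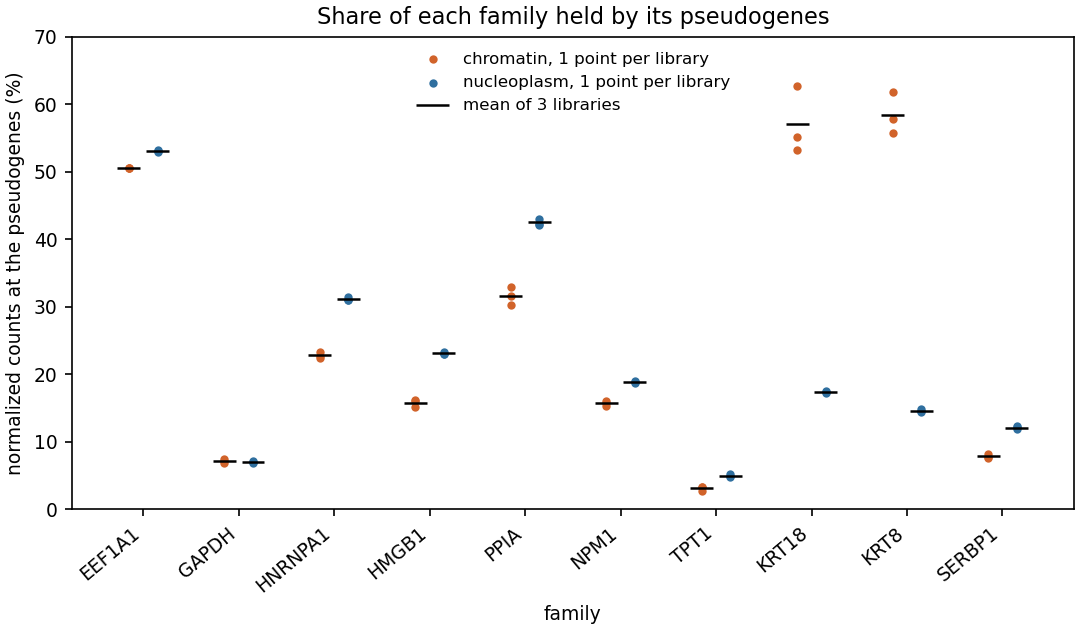
Percent of each family's normalized counts that lay on its tested pseudogenes, in each chromatin and nucleoplasm library, with the mean of 3 libraries as a line. KRT18 and KRT8 lie far higher in chromatin, and most other families a little lower.

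Long reads came from chromatin alone and were measured per transcript as TPM, so no fraction comparison was possible. Of the 191 pseudogenes 83 were above 0 TPM in both long-read libraries, 58 were listed at 0 in both and 21 were above 100 TPM in both. EEF1A1P5 had the highest level (3806 and 3823 TPM), followed by EEF1A1P6 (2880 and 2435), EEF1A1P13 (2823 and 2374), EEF1A1P11 (2597 and 1879) and EEF1A1P9 (1324 and 1056). Their parent was listed at 824 and 495 TPM, and the EEF1A1 copies together made up 94.5% and 96.1% of the family's TPM. The copies of PPIA made up 96.6% and 93.6%, those of GAPDH 22.8% and 40.2%, and those of KRT8 38.2% and 36.8%. Transcripts were credited to a gene by identifier or by a span Jaccard index of at least 0.5. Assembled transcripts of a parent that miss this index are left out of these shares. EEF1A1 had no short-read gene at this index. EEF1A1P5 was 99.7% identical to its parent over the alignment, so its TPM may hold reads of EEF1A1. Of the 22 pseudogenes called in chromatin 9 were above 0 TPM in both libraries and 6 at 0 in both, and none exceeded 7.66 TPM. The 5 highest pseudogenes in these chromatin long reads were all called in nucleoplasm by short reads.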

How the data were processed

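The study separated HAP1 nuclei into chromatin and nucleoplasm and added ERCC standards before extraction. Short reads of 50 bases were aligned by the authors with HISAT2 2.1.0 to hg38, transcripts were assembled and merged with StringTie, and the deposited short-read values are gene counts divided by a DESeq2 size factor, a normalized signal per library. The deposited long-read values are StringTie TPM per transcript after minimap2 alignment. Whether they come from reads before or after computational assignment of strand is not stated. All value columns belonged to a library.

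Dividing each value by the smallest of its library gave whole numbers for 100% of values (tolerance 0.001), with 38895027 to 43804918 recovered reads in chromatin and 75737601 to 79523938 in nucleoplasm. TPM holds no depth. Lower bounds of folds cover counting error only. Tested genes spanned over 200 bases and reached 10 normalized counts in 3 or more libraries. Fractions were compared by limma 3.58.1 (R 4.3.3), trend setting on and no covariates, on values log2-transformed after adding 1, a scale that understates the change of low genes. edgeR 4.0.16 and DESeq2 1.42.0 were run on recovered reads as alternatives, beside other pseudocounts, filters, scalings, a replicate block and each library left out. On simulated counts for this comparison 200 of 26093 genes were changed. At an adjusted p-value under 0.05, limma found 200 of these 200 in the right direction, with no fold threshold. It called 0 of the unchanged genes past both thresholds. P-values measure the spread between samples of 3 cultures.

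Loci, hosts and parents came from GENCODE release 44 on hg38, and the authors used an earlier release. Pseudogenes were aligned to the parent's mRNA with Biopython 1.88. In each printed stretch the 75 coding bases were those, free of gaps, whose rate of differences was closest to that of the whole alignments. The copies shown were chosen after their values were seen. Named genes were the parents, the most abundant pseudogene of each family, the 5 largest changes in each direction, the 5 most abundant pseudogenes with a tested host, the 5 highest in long reads, and MALAT1, GAPDH and B2M. Others are named as examples and were chosen after their values were seen. The pseudogenes and lists were chosen with earlier results of these data known.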

Additional observations from a re-analysis of the deposited data

How the results depend on the processing

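Of 191 pseudogenes, 22 were called in chromatin and 119 in nucleoplasm. With a mean count of 50 or more, 3 of 120 were called in chromatin. With libraries scaled to the same total, 66 were called in nucleoplasm and 24 in chromatin. With the same ERCC total, the median of all tested genes moved from -0.02 to -1.32 and 156 and 15 were called, so that directions hold relative to the bulk of the genes only. All other settings, edgeR (22 and 123) and DESeq2 (22 and 114) among them, stayed within 1.5 times. Leaving out each library gave 20 to 23 and 112 to 124. The median difference from the parent, -0.38, became -0.43 and -0.22 with pseudocounts of 0.5 and 5, -0.50 with a mean of at least 50 counts and -0.47 with the 8 parents named by the table. It reversed to 0.85 without the count minimum, over 356 loci. Without 1 library it was -0.44 to -0.36. The median difference from the host, 0.03, became -1.72 over the 16 pairs with a mean of at least 50 counts and 1.42 over the 34 with at least 50% unique windows, and -0.03 to 0.16 without 1 library, so it has no settled sign. The family shares in points, chromatin minus nucleoplasm, changed with at least 50% unique windows from -2.47 to -2.18 (EEF1A1), -8.38 to -4.35 (HNRNPA1), -7.33 to -4.31 (HMGB1), -10.9 to -7.90 (PPIA) and -3.13 to -1.29 (NPM1), and at a Jaccard index of at least 0.8 to -9.49 (PPIA) and from -4.28 to -2.92 (SERBP1). Without 1 library they were -2.54 to -2.41 (EEF1A1), -0.000341 to 0.290 (GAPDH), -8.63 to -8.18 (HNRNPA1), -7.53 to -7.04 (HMGB1), -11.6 to -10.3 (PPIA), -3.30 to -2.94 (NPM1), -2.01 to -1.67 (TPT1), 36.9 to 41.6 (KRT18), 42.2 to 45.2 (KRT8) and -4.43 to -4.18 (SERBP1). The cause of these changes was not tested. With the same ERCC total the log2 fold changes of the merged HMGN2 gene and FAM172A turned to -1.25 and -1.29, and with the same total those of STEAP1B and GAREM1 to 0.0224 and 0.00084. FAM172A was -0.0016 without nucleoplasm replicate 2. The other named genes kept their direction, and 5 parents and EEF1A1P24 lost their call as given above. HNRNPA1P10 (-1.77), HMGB1P6 (-1.89), HNRNPA1P7 (-1.67) and B2M (-1.65) lost theirs with the same total, and MALAT1 (1.78) with the same ERCC total. That ERCC scaling gave calls to HNRNPA1 (-2.84), HMGB1 (-2.82), KRT18 (-2.77), KRT8 (-2.50), SERBP1 (-2.69), GAPDHP63, HMGN2P8, SERBP1P5 and ABLIM1. THSD4-AS1 gained a call with the same total and by DESeq2, and GAPDHP63 without chromatin replicate 3. Same-numbered chromatin and nucleoplasm libraries correlated at 0.088, 0.054 and 0.063 in their deviations from the group means, each the best match of its number, which is a hint only. With the replicate number as a block 22 and 119 were called, and the paired medians against parent and host were -0.38 and 0.03. Depth limits the copies under 3 reads in a fraction, whose folds are bounds.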
